A study of Homo sapiens with 4 samples.

Results

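The regions described here are 314 USF1 peaks that were found in both of 2 peak lists and lay at the ends of genes that do not code for protein. They were chosen by 3 conditions: a list 1 peak overlapped a list 2 peak by at least 1 bp, its centre was more than 1 kb (1000 bp) from every end of a protein-coding gene, and its centre was within 1 kb of an end of any other annotated gene. Genes were those of the RefSeq table of GRCh38.p14, on chromosomes 1 to 22 and X. The 314 peaks were 5.89% of the 5335 shared peaks (95% Wilson interval 5.29% to 6.55%, counting error only). A further 1907 shared peaks lay at protein-coding gene ends and 3114 at neither kind of end. Each of the 314 peaks had 1 partner in list 2, and the partners were 312 distinct peaks.

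Chromatin came from Huh7, a human hepatocellular carcinoma line, in which USF1 was overexpressed, and every library carried this overexpression as far as the design text tells. Fragments bound by the tagged protein were precipitated with an anti-FLAG antibody in the groups IP 1 and IP 2, and chromatin that was not precipitated gave the groups input 1 and input 2, with 1 library each. List 1 compares IP 1 with input 1 and list 2 compares IP 2 with input 2. The labels number the libraries but do not say that they came from separate cultures. IgG precipitates and cells without the tagged protein were not analysed here. The 4 libraries kept between 43562726 and 47165647 tags (reads left after removal of duplicates), and list 1 held 14300 peaks against 27325 in list 2.

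USF1 is a transcription factor of the basic helix-loop-helix leucine zipper family that binds DNA as a dimer, with highest affinity for the palindromic E-box CACGTG. Long non-coding RNA (lncRNA) genes are transcribed by RNA polymerase II, as protein-coding genes are, and some carry small nucleolar RNAs (snoRNAs) or microRNAs in their transcripts. Transfer RNA (tRNA) genes and several other small RNA genes are transcribed by RNA polymerase III from compact promoters. Binding near a gene end does not by itself show that the gene's RNA changes, and no RNA was measured here.

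The sequences that carry the pattern described below are E-boxes at the starts of lncRNA genes with a peak. For the 8 genes of highest fold among the named genes whose promoter window holds an E-box, a stretch of 40 bases around the E-box is given from the RefSeq promoter table (GRCh38.p14), 5′ to 3′ on the gene's own strand, with each CACGTG in capitals.
PLS3-AS1: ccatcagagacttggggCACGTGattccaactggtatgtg
MILIP: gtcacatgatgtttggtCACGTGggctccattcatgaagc
LOC124903854: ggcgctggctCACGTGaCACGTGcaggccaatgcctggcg
SNHG30: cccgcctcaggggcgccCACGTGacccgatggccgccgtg
DLG1-AS1: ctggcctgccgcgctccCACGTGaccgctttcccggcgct
LINC01970: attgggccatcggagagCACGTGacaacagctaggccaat
LINC01431: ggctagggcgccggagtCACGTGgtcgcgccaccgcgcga
ATP13A3-DT: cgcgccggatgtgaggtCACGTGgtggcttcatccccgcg
The stretches lie at chrX:115562721-115562760 on the minus strand, chr17:81927729-81927768 on the plus strand, chr1:15603632-15603671 on the minus strand, chr17:35568032-35568071 on the plus strand, chr3:197298134-197298173 on the plus strand, chr17:82292831-82292870 on the minus strand, chr20:23358185-23358224 on the minus strand and chr3:194487005-194487044 on the plus strand.

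The whole 300-base window, from 250 bases before the start to 50 bases after it, is given for LOC124903854, the gene with the most E-boxes (3) among the promoters at these peaks. It spans chr1:15603494-15603793 on the minus strand.
LOC124903854: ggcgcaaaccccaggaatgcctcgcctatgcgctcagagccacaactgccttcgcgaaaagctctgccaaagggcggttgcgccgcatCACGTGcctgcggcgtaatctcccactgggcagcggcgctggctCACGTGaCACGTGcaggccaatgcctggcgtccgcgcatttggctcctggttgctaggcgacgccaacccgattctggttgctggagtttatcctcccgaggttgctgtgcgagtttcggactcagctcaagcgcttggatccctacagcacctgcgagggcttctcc
A pair of E-boxes stand 1 base apart in this window, and the remaining one lies further upstream.

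The highest list 2 folds were at the 5′ ends of lncRNA genes, led by PLS3-AS1 (28.3), LOC124903854 (27.3) and SERF2-C15ORF63 (26.4). The highest list 1 folds were at LOC107984696 (18.9) and LOC101929935 (18.4), both at the 3′ end, and at LOC105377673 (17.1), whose strand is not given. All folds are the authors' values of IP tags over the tags expected from input and local background, and since presence in both lists chose the peaks, folds, tag counts and false discovery rates (FDRs) are a description with no test. Over the 314 peaks the median fold was 6.19 in list 1 (2.88 to 18.9) and 6.73 in list 2 (2.74 to 28.3). The lower of a peak's 2 folds had a median of 5.61, against 5.25 for shared peaks at protein-coding ends, 6.09 for shared peaks at neither end and 5.78 for all shared peaks. The highest lower fold was 18.9 here, 41.0 at protein-coding ends and 45.1 at neither end, so the very strongest shared peaks were of the other 2 kinds.

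The fold was 8 or more in both lists at 52 of the 314 peaks (16.6%), beside 18.2% of all 5335 shared peaks. It was higher in list 2 at 199 peaks (63.4%), beside 63.1% of all shared peaks. The caller's FDR was at most 5% in both lists at 14 peaks (4.46%), beside 4.76% of all shared peaks, 9.28% of those at protein-coding ends (177 peaks) and 2.02% at neither end (63 peaks). All 3 shares of the non-coding end peaks were near the background, and nothing about these peaks is read from them. The FDR in list 1 stood at its ceiling of 100% for 147 of the 314 peaks (46.8%), beside 46.4% of all shared peaks. In list 2 the FDR was at most 5% for 208 (66.2%), beside 63.2% of all shared peaks. These shares, too, were near the background.

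**Figure D1:**
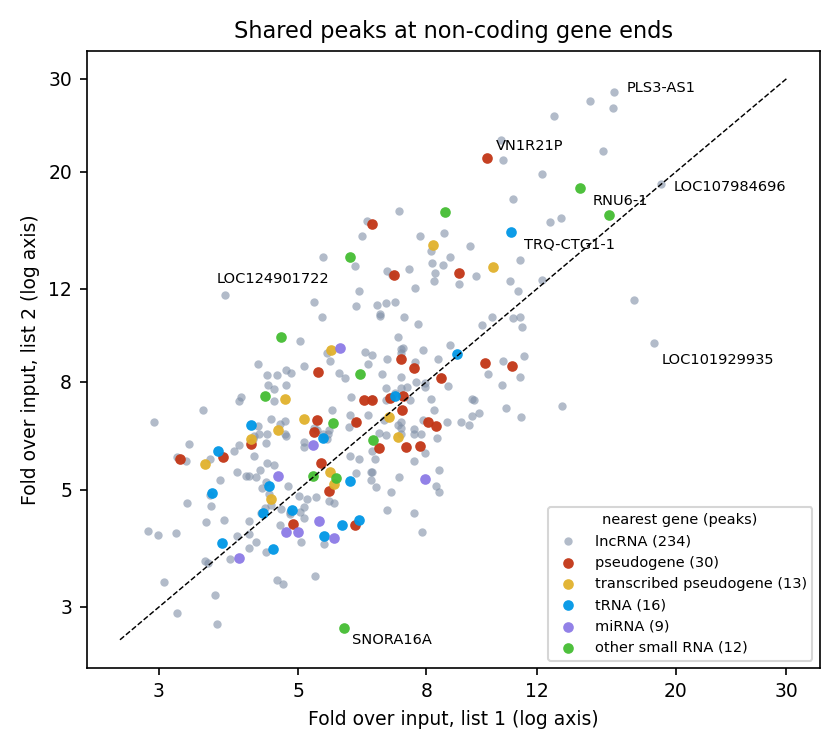
Fold over input in list 1 (x axis) and list 2 (y axis), both on log axes, for the 314 shared peaks at non-coding gene ends, coloured by the class of the nearest non-coding gene; the dashed line marks equal folds. More points lie above the line (199) than below it, and the highest points at the right belong mostly to lncRNA genes with 2 small RNA genes among them.

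The plot of the folds in both lists shows the spread of single peaks around the line of equal folds. Across the 314 peaks Spearman's rho between the lists was 0.641 for fold and 0.777 for tags, a description across peaks that share the same libraries. Over all shared peaks rho was 0.569 for fold and 0.809 for tags. The summits of the 2 lists lay a median of 39 bp apart, beside 38 bp over all shared peaks. Within 100 bp of each other were 225 of 314 pairs (71.7%), beside 75.7% of all shared peaks.

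Of list 1 peaks at non-coding gene ends, 314 of 628 (50%, 46.1% to 53.9%) had a partner in list 2. That share was 75.8% of 2516 list 1 peaks at protein-coding ends and 27.9% of 11149 peaks at neither end. In list 2, 301 of 1401 peaks at non-coding ends (21.5%, 19.4% to 23.7%) had a partner, beside 36.3% at protein-coding ends and 15.2% at neither end. In both lists the non-coding ends therefore stood between the other 2 kinds of position. These shares use the same overlap that chose the peaks and carry no test.

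The 314 peaks lay at 358 distinct non-coding genes, with 277 peaks at 1 gene, 30 at 2 genes and 7 at 3 or more. The median distance from the peak's centre to the nearest non-coding end was 248.5 bp, and 86 peaks lay within 100 bp. Inside a protein-coding gene were 110 peaks (35%), and 204 were between such genes. The nearest protein-coding end was 1 to 5 kb away for 68 peaks, 5 to 50 kb away for 155 and more than 50 kb away for 91. Most of the peaks were thus well clear of the outermost ends of protein-coding genes. Distance to starts inside those genes, listed or unlisted, was not measured, so a peak at such a start cannot be told apart here. The promoter table holds 22131 protein-coding windows for 15811 genes, so some genes have more than 1 listed start. NBR2, for example, had its peak inside BRCA1, 44792 bp from the nearest protein-coding end.

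By the class of the nearest gene, 234 of the 314 peaks (74.5%, 69.4% to 79%) were at lncRNA genes. Pseudogenes took 30 peaks (9.55%), transcribed pseudogenes 13 (4.14%), tRNA genes 16 (5.10%), microRNA genes 9 (2.87%) and other small RNA genes 12 (3.82%). Among all 39124 annotated non-coding genes the shares were 46.5% lncRNA, 39.4% pseudogene, 3.18% transcribed pseudogene, 1.13% tRNA, 4.88% microRNA and 3.88% other small RNA. Pseudogenes, which are mostly inactive copies of other genes, thus made up a far smaller part of the peaks than of the annotation.

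Counted over genes with an end more than 1 kb from any protein-coding end, 358 of 38207 (0.937%) had one of the peaks. The share was 8.48% of tRNA genes (33 of 389, 6.1% to 11.7%), 1.43% of lncRNA genes (255 of 17808, 1.27% to 1.62%) and 1.22% of transcribed pseudogenes (15 of 1232, 0.739% to 2%). It was 0.985% of other small RNA genes (14 of 1422), 0.588% of microRNA genes (10 of 1700) and 0.203% of pseudogenes (31 of 15252, 0.143% to 0.288%). None of the 404 genes of the remaining types had one (Wilson upper bound 0.942%). The tRNA genes stand in clusters, and 19 peaks accounted for all 33 of them, so these genes are not independent and their interval is too narrow.

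**Figure D2:**
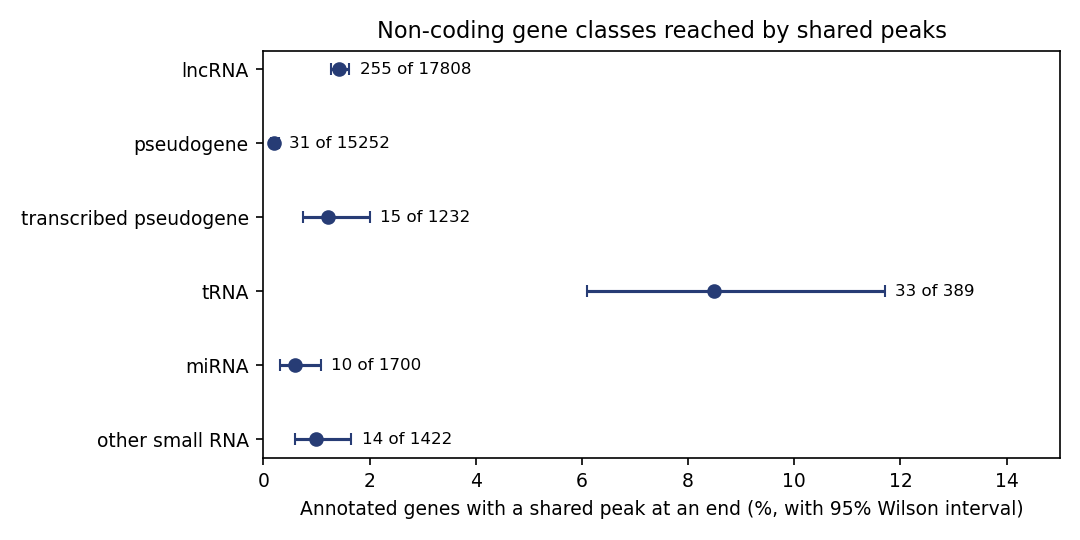
Share of genes of each non-coding class that had one of the 314 peaks at an end (points, with 95% Wilson intervals as bars), with the counts printed beside each point. Only genes with an end more than 1 kb from any protein-coding end are counted. The tRNA point at 8.48% stands to the right of all others, and the pseudogene point at 0.203% is the lowest.

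Peak strength did not follow that order. The plot of the share of genes by class puts tRNA genes first, while the median of the lower fold was 4.40 at tRNA genes and 4.36 at microRNA genes, 5.12 at transcribed pseudogenes, 5.71 at lncRNA genes, 5.87 at other small RNA genes and 6.46 at pseudogenes. Peaks at tRNA genes were wide and rich in tags, with a median width in list 1 of 1466 bp and 106.5 tags, beside 921.5 bp and 65 tags over all 314 peaks. In list 2 the medians were 1343 bp and 89 tags, beside 1008 bp and 74 tags over all 314. The microRNA gene peaks were wider and richer there, with 1551 bp and 110 tags, so the trait was not particular to tRNA genes. Peaks at pseudogenes were narrow, with list 1 medians of 731.5 bp and 48.5 tags.

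**Figure D3:**
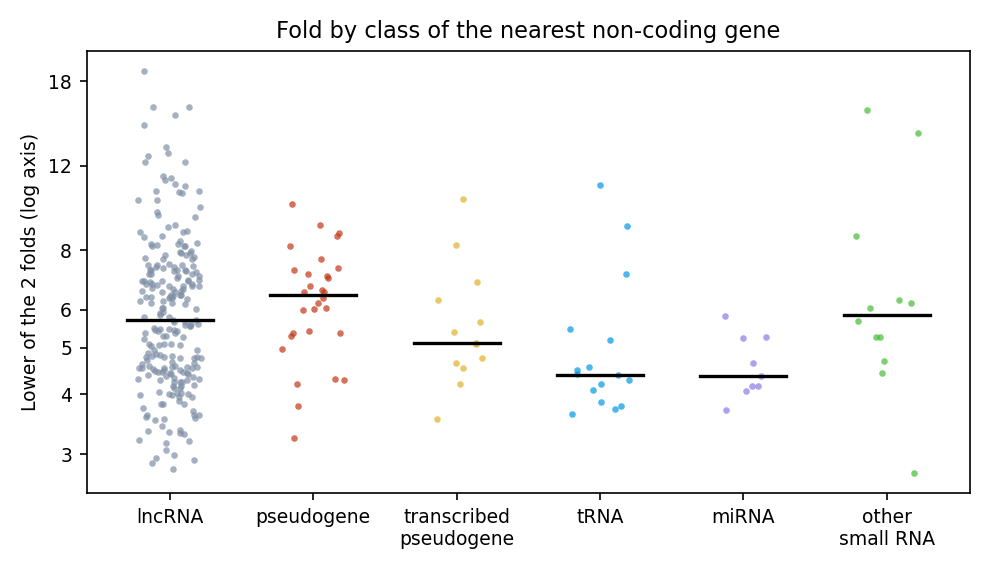
The lower of the 2 folds (log axis) of each of the 314 peaks by class of the nearest non-coding gene; bars mark the median of each class. The tRNA and microRNA medians are the lowest, and the 3 highest tRNA peaks stand apart from the rest of that class.

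At lncRNA genes the peaks sat mostly at the start. Of the 234 peaks, 124 (53%, 46.6% to 59.3%) were at the 5′ end, 31 (13.2%) at the 3′ end and 8 (3.42%) within reach of both, while the strand of the gene was not given by the promoter table for 71. The median distance was 213.5 bp for 5′ ends and 574 bp for 3′ ends. Folds of at least 8 in both lists were found at 23 of the 5′ peaks (18.5%, 12.7% to 26.3%) and 6 of the 3′ peaks (19.4%, 9.19% to 36.3%), both close to the 18.2% of all shared peaks.

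The highest peak by lower fold was one of the 3′ group. At LOC107984696, a lncRNA gene, the fold was 18.9 in each list with 77 and 84 tags (chr14:98999144-98999928), and the peak lay 111 bp from the 3′ end and 169751 bp from the nearest protein-coding end, that of BCL11B. Its list 1 fold is the highest of the 314 peaks.

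Next came the start of PLS3-AS1, a lncRNA gene antisense to PLS3, which encodes an actin-bundling protein. The fold was 15.9 in list 1 (68 tags) and 28.3 in list 2 (197 tags) at chrX:115562288-115563062. The list 2 fold is the highest of the 314 peaks, and the nearest end of PLS3 lay 1501 bp away. At DLG1-AS1, in the gene of the scaffold protein DLG1, the folds were 12.8 (81 tags) and 25.5 (144 tags) at chr3:197297583-197298558. Both antisense genes were much higher in list 2 than in list 1, and both hold an E-box close to the summits.

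MILIP, a lncRNA gene within the span of the transcription factor gene MAFG, had folds of 15.3 and 21.9 (113 and 96 tags) with the centre 17 bp from its start (chr17:81927329-81928363). SERF2-C15ORF63, a readthrough transcript that the table lists as lncRNA, had folds of 15.9 and 26.4 (241 and 279 tags) and an FDR of 0% in both lists (chr15:43791692-43792883). Its peak lies within SERF2, so it cannot be told apart from an internal start of that gene. LOC124903854 had folds of 14.6 and 27.3 (150 and 161 tags) with its centre 42 bp from the start, at chr1:15603050-15604121. That peak also reached the pseudogene CHCHD2P6.

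Of intergenic lncRNA genes with LINC names, LINC01234 had folds of 12.6 and 16.1 (chr12:113773143-113774120), LINC01970 of 12.2 and 19.9 (chr17:82292369-82293368) and LINC01431 of 11.2 and 11.9 (chr20:23357716-23358655). All 3 peaks were within 58 bp of the gene's start. LOC105371712 completed the 12 highest with folds of 12.2 and 12.5, although at 639 bp it was farther from its gene's end. Of 2296 LINC genes with an end away from protein-coding ends, 42 (1.83%) had a peak.

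Antisense lncRNA genes, with symbols ending in AS and a number, had a peak at 44 of 1976 genes (2.23%), with a median lower fold of 5.68. EPC1-AS1 was the highest of them after PLS3-AS1 and DLG1-AS1, with folds of 11.4 and 10.2. Divergent transcripts, which start beside a protein-coding promoter and run the other way, had one at 6 of 542 (1.11%). ATP13A3-DT was the first of these (11.3 and 6.86), followed by TAF12-DT (6.05 and 5.79) and PPP1R13B-DT (5.47 and 6.38). The distance condition removed most divergent transcripts that had a shared peak: 109 such genes had one of any kind. A gene counts among the 542 if either end is away from protein-coding ends, so its start need not be. Of genes with symbols ending in IT or OT and a number, 1 of 107 had a peak, CACNA1C-IT2 (10.2 and 10.6).

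Host genes of small RNAs, whose introns or exons are cut into snoRNAs or microRNAs, had a peak at 11 of 117 genes (9.4%). That share stands beside 1.43% of lncRNA genes and 0.937% of all non-coding genes. The count goes by gene ends and leaves out SNHG12, which had a peak only at its start in the promoter table. They were chosen with earlier results known, so the share is a description. The snoRNA host SNHG30 led with folds of 13.1 and 16.4 (88 and 115 tags; chr17:35567684-35568496), 24 bp from its start. A peak at chr17:64145375-64146951 lay within 1 kb of 3 genes, the host SNHG25 and the snoRNA genes SNORD104 and SNORA50C, and had folds of 8.56 and 16.8. SNHG5 had folds of 6.03 and 6.57, and SNHG29 of 5.62 and 8.75.

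The microRNA hosts among them carry several families that share a seed, the bases 2 to 8 through which a microRNA pairs with its targets. Mature sequences of some of these families are shown, from RefSeq GRCh38.p14, with the seed in capitals. Hosts on different chromosomes carry members of the let-7 family and of the miR-17 family. Among these hosts, miR-15a and miR-16 come from DLEU2 alone, and miR-221 and miR-222 from MIR222HG alone.
let-7a-5p: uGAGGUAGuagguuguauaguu
let-7f-5p: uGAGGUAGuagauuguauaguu
let-7d-5p: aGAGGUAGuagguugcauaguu
let-7i-5p: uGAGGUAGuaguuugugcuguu
miR-15a-5p: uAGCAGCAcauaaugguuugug
miR-16-5p: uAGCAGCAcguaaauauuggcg
miR-17-5p: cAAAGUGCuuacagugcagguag
miR-20a-5p: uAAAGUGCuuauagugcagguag
miR-106a-5p: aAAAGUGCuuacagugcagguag
miR-221-3p: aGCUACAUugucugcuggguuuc
miR-222-3p: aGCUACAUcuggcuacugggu
MIRLET7A1HG on chromosome 9 holds let-7a, let-7f and let-7d, and MIRLET7IHG on chromosome 12 holds let-7i. DLEU2 on chromosome 13 holds miR-15a and miR-16. MIR17HG on chromosome 13 holds miR-17 and miR-20a, MIR106AHG on the X chromosome holds miR-106a, and MIR222HG on the X chromosome holds miR-221 and miR-222.

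At the let-7 hosts the folds were 9.36 and 6.63 for MIRLET7A1HG (131 and 126 tags; chr9:94165504-94167518) and 7.35 and 9.29 for MIRLET7IHG (112 and 128 tags; chr12:62602227-62603491). A second list 1 peak at chr12:62603524-62604145, over the let-7i gene MIRLET7I itself, had a list 1 fold of 5.83 with 28 tags and overlapped the same list 2 peak as its neighbour. These 2 members are therefore 1 site in list 2. MIRLET7A1HG was also 1 of the 14 peaks that passed the 5% FDR limit separately in list 1 and in list 2.

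The hosts of the miR-17 seed family were MIR106AHG, with folds of 6.92 and 13.0 (28 and 44 tags), and MIR17HG, with 3.95 and 5.91 (184 and 197 tags). DLEU2 had folds of 5.30 and 6.56, and MIR222HG of 4.76 and 6.75. All 6 of these microRNA hosts had the peak at the 5′ end of the host gene. MIR23AHG, the host of miR-23a, miR-27a and miR-24, differed in that its peak (5.11 and 4.64) was at the 3′ end.

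The microRNA genes nearest to a peak were MIRLET7I, MIR12126 (5.28 and 6.09), MIR658 (7.97 and 5.25), MIR3175, MIR10392, MIR639, MIR4665, MIR4741 and MIR3650. The last 6 had lower folds between 3.71 and 4.65. Over the list of microRNA genes, 10 of 1670 (0.599%) had a peak. Over all genes of the microRNA type the share was 0.588% with an interval of 0.32% to 1.08%, which includes the 0.937% of all non-coding genes.

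Of 44 non-coding genes known from the cancer literature with an end away from protein-coding ends, 5 (11.4%) had a peak, beside 1.43% of all lncRNA genes. The 44 are lncRNA genes apart from the telomerase RNA gene TERC. SNHG12, on the same list, was not counted, as its nearest gene end lay 1053 bp from a list 1 centre. Its start in the promoter table, however, lay 57 bp from the centre of the SNORA16A peak described below. NORAD, a DNA damage-induced lncRNA that binds Pumilio proteins, had folds of 6.56 and 9.01 (59 and 61 tags; chr20:36050863-36051528), and CRNDE had 4.53 and 6.80. DLEU2 is described above. MALAT1, a nuclear speckle RNA, had folds of 4.85 and 4.49 (207 and 261 tags), and NEAT1, the scaffold of paraspeckles, had 4.38 and 5.04 (471 and 427 tags). The NEAT1 peak had the most tags of all 314 in list 1, yet a fold below the median.

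The MALAT1 peak closed a run of 3 within 23162 bp at chr11:65476263-65499424. ENEMAL stood at 6.32 and 15.2 (258 and 278 tags) and LINC02736 at 10.6 and 21.1 (463 and 500 tags; chr11:65486330-65490853). The first of these peaks and the second had higher folds in list 2, whereas the MALAT1 folds were close to each other.

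Of the 16 peaks nearest to a tRNA gene, 3 had a lower fold above 7. TRQ-CTG1-1, a glutamine tRNA gene, had folds of 10.9 and 15.4 (46 and 85 tags; chr6:18835864-18836659), TRS-GCT5-1, a serine tRNA gene, had 8.97 and 9.02 (58 and 53 tags; chr6:28212616-28213467), and TRN-GTT2-4, an asparagine tRNA gene, had 7.14 and 7.52 (78 and 88 tags; chr13:30673665-30674902). Each covered a single tRNA gene, as did 3 of the weaker peaks, at TRV-AAC1-5, TRL-TAA1-1 and TRD-GTC2-8, whose lower folds were 4.09, 3.86 and 3.64. TRK-TTT3-2, a lysine tRNA gene with TRK-TTT3-1 beside it, had folds of 6.04 and 5.2 with 221 and 157 tags, and an FDR of 3.03% and 1.46%. Of the same 16, peaks over more than 1 tRNA gene had lower folds from 3.72 at TRF-GAA1-4 to 5.47 at TRC-GCA2-4. TRV-TAC2-1 and its neighbours, 4 tRNA genes in all, shared a peak with folds of 4.40 and 4.52, and the 4 tRNA genes at TRS-GCT4-3, with the microRNA gene MIR4521, shared one of 3.78 and 3.96.

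Other genes of RNA polymerase III were reached singly. RNU6-1, a gene for the spliceosomal U6 RNA, had folds of 14.1 and 18.6 (128 and 116 tags; chr15:67839840-67840758). RN7SL1 and RN7SL2, the genes of the RNA of the signal recognition particle, had folds of 6.58 and 6.21 and of 6.28 and 8.30. The Y RNA gene RNY5 had 6.05 and 13.8 at a distance of 581 bp, and the vault RNA gene VTRNA1-2 had 4.43 and 7.52 at 2 bp. RNU6-1 was the only one of these 5 genes past a fold of 8 in both lists.

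The spliceosomal genes RNU4ATAC, of the minor spliceosome, and RNVU1-6 had folds of 5.68 and 6.68 and of 5.74 and 5.26. LOC124901833, which the table lists as a snoRNA gene inside ELMO1, had folds of 15.7 and 16.6 (59 and 78 tags; chr7:37169379-37170036). At the other extreme SNORA16A had 5.91 and 2.74, the lowest list 2 fold of all 314 peaks. The centre of that peak also lay 57 bp from the promoter-table start of the host gene SNHG12, with a summit in its promoter window. SCAANT1, the 1 antisense RNA of the table's own type with a peak, had 4.69 and 9.75.

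Pseudogenes had a high median fold with few tags. VN1R21P, a vomeronasal receptor pseudogene, had folds of 10.0 and 21.3 (37 and 66 tags; chr3:14089345-14090006), and the 7SK pseudogene RN7SKP73 had 9.03 and 12.9 (289 and 174 tags). Ribosomal protein pseudogenes had a peak at 5 of 1834 genes (0.273%), led by RPS17P12 (9.94 and 8.69), RPL35P1 (10.9 and 8.58) and RPL21P75 (8.46 and 8.15). Copies in near-identical families can share or lose reads in alignment, and how such reads were treated is not given in the sources used here. Of transcribed pseudogenes, RAET1K had folds of 8.19 and 14.52 and GTF2IRD1P1 6.98 and 6.87. The table also puts ORAI1, the gene of a calcium channel subunit, in this class, with folds of 10.2 and 13.2, so that 1 of the 13 is a gene known to encode a protein.

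Among peaks with a fold of at least 8 in one of the lists, those with the largest ratio towards list 1 were LOC101929935 (18.4 and 9.49, with 162 and 42 tags), LOC124904051 (13.2 and 7.22), NBR2 (8.37 and 4.96) and ATP13A3-DT, all at lncRNA genes. Of peaks below that fold, SNORA16A (5.91 and 2.74), FUT8-AS1 (7.89 and 4.16) and LOC105379082 (7.65 and 4.51), named after their values were seen, also had a larger ratio than NBR2. Higher in list 2 by the largest ratio were LOC124901722 (3.82 and 11.7), LCDR (5.47 and 13.8), LOC124902046 (6.44 and 16.1) and the olfactory receptor pseudogene OR5H4P (6.55 and 15.9). At LOC101929935 both tag count and fold were lower in list 2, where the peak was also narrower (534 bp against 1959 bp in list 1). Tags are counted over each list's own peak. At LOC124901722 the tags were almost equal (95 and 102) and the folds were not.

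The 14 peaks that met the 5% FDR limit in list 1 and list 2 alike were at 11 lncRNA genes, RNU6-1, SNORD104 and TRK-TTT3-2. The lncRNA genes not yet named among them were LOC105377673 (17.1 and 11.4), LOC124904419 (11.0 and 17.8), RUSC1-AS1 (8.52 and 13.4) and LOC124901143 (7.28 and 9.22). Peaks within 1 kb of 3 or more genes numbered 7, and those not yet named were at CCZ1P1 (7.33 and 7.08), LOC124901294 (8.33 and 6.26) and LINC02453 (3.55 and 3.66).

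Peaks at the limits of the rule had ordinary folds. Just inside the limit from a non-coding end were LOC105370579 (990 bp, 4.53 and 4.68) and LOC124900724 (995 bp, 7.28 and 6.38), and just outside were LINC00380 (1003 bp, 6.53 and 6.21) and LOC124902208 (1009 bp, 6.76 and 9.21). Just far enough from a protein-coding end were OSER1-DT (1044 bp, 4.44 and 6.14) and LINC01134 (1050 bp, 6.4 and 9.13), and just too near were PBX3-DT (972 bp, 5.03 and 3.07) and TOB1-AS1 (996 bp, 3.70 and 3.90).

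The E-box was not used to choose the peaks, so its presence in promoters could be compared. RefSeq promoter windows of 300 bases were at hand for 11383 lncRNA genes and 15811 protein-coding genes, but for no gene of the other non-coding classes. A peak of the 314 had its centre within 1 kb of the start of 146 lncRNA genes with a window. These genes had 140 peaks between them, so some shared a peak and are each counted in the shares and the test below. The signed distance from start to centre had a median of -33 bp (negative is upstream), with the centre upstream at 83 genes and downstream at 63, and within 250 bp at 81.

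The motif CACGTG, which reads the same on both strands, was in 7.27% of all 34960 windows, 5.41% of lncRNA windows and 8.34% of protein-coding windows. It was in 29 of the 146 lncRNA promoters at the peaks (19.9%, 14.2% to 27.1%) and in 630 of 2053 protein-coding promoters with a shared peak at the start (30.7%, 28.7% to 32.7%). Promoters at non-coding peaks thus held the E-box less often than protein-coding promoters with a shared peak (odds ratio 0.56, two-sided Fisher's exact test, p = 0.005006, 1 comparison run). Genes are not replicates, some share a peak, and the p covers counting error only. By the same exact test, the call was lost with CACGTG or CACATG as the motif (odds ratio 0.936, p = 0.7886), with 500 bp in place of 1 kb for both the protein-coding and the non-coding distance limit (0.671, p = 0.06624), and among promoters that held a summit (0.921, p = 0.7961), a subset chosen after the data were seen.

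The position of the summit and the base composition also differed between the lncRNA and the protein-coding promoters. A summit of either list fell in the window at 65 of 146 lncRNA promoters (44.5%) and at 1536 of 2053 protein-coding promoters (74.8%). With a summit in the window the E-box was in 24 of 65 lncRNA promoters (36.9%, 26.2% to 49.1%) and 597 of 1536 protein-coding promoters (38.9%, 36.5% to 41.3%). With the summit outside it was in 5 of 81 (6.17%) and 33 of 517 (6.38%). The median GC content was 63.3% for the lncRNA promoters at peaks, 50% for all lncRNA windows and 67% for the protein-coding promoters, and the part of base composition was not tested.

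The share of lncRNA promoters with an E-box was higher at stronger peaks: 5 of 58 (8.62%) with a lower fold under 5, 15 of 64 (23.4%) from 5 to 8 and 9 of 24 (37.5%) at 8 or more. For protein-coding promoters the shares were 11.2%, 33.1% and 75.4%. With only peaks of fold 8 or more in both lists, the odds ratio was 0.197 (two-sided Fisher's exact test, p = 0.0001825). Of the 24 lncRNA promoters, 11 held a summit and 9 of the 11 had an E-box (81.8%, 52.3% to 94.9%), while none of the 13 with the summit outside had one (upper bound 22.8%). The protein-coding value for a summit in the window at that fold was 91.5% (259 of 283).

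**Figure D4:**
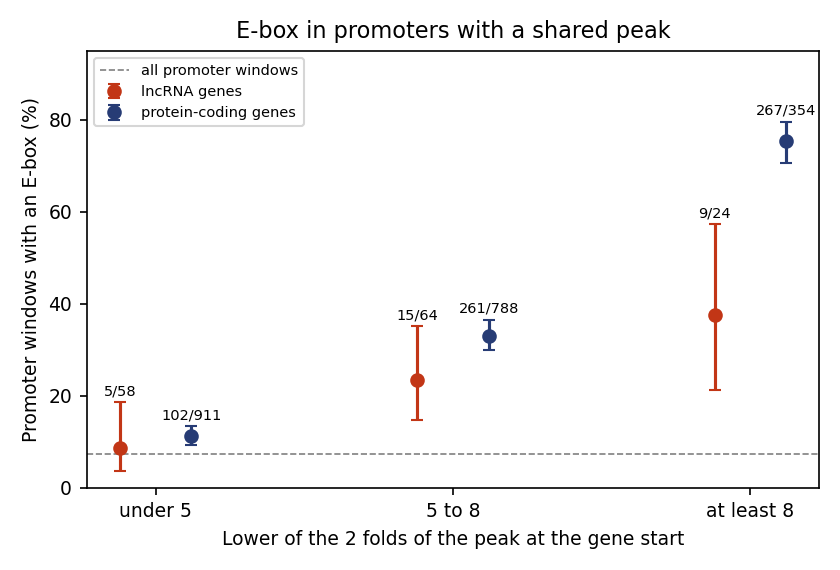
Share of RefSeq promoter windows that hold CACGTG (points, with 95% Wilson intervals as bars and counts above) for lncRNA and protein-coding genes with a shared peak at the start, by the lower of the peak's 2 folds; the dashed line is the 7.27% of all windows. In both series the share is lowest under a fold of 5 and highest at 8 or more, where it is 37.5% for lncRNA and 75.4% for protein-coding promoters.

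The plot of E-box share by fold shows lncRNA promoters below protein-coding ones in each bin, with intervals that overlap in the first 2 bins. LINC01234 and LURAP1L-AS1 were the 2 genes of fold 8 or more that held a summit in the window without CACGTG. They were named after their values were seen.

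The 29 promoters held 33 E-boxes, close to the summits. The nearest E-box lay a median of 23 bp (quartiles 10 and 56) from the list 1 summit and 14 bp (5 and 29) from the list 2 summit, and within 50 bp of both at 19 of 29 promoters. At DLG1-AS1 the distances were 0 and 1 bp, at MILIP 10 and 6 bp, at SNHG30 11 and 3 bp and at PLS3-AS1 15 and 10 bp. DLEU2 differed between the lists, at 41 bp in list 1 and 1350 bp in list 2. Sequence outside the windows was not used here, so E-boxes beyond them were not counted.

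**Figure D5:**
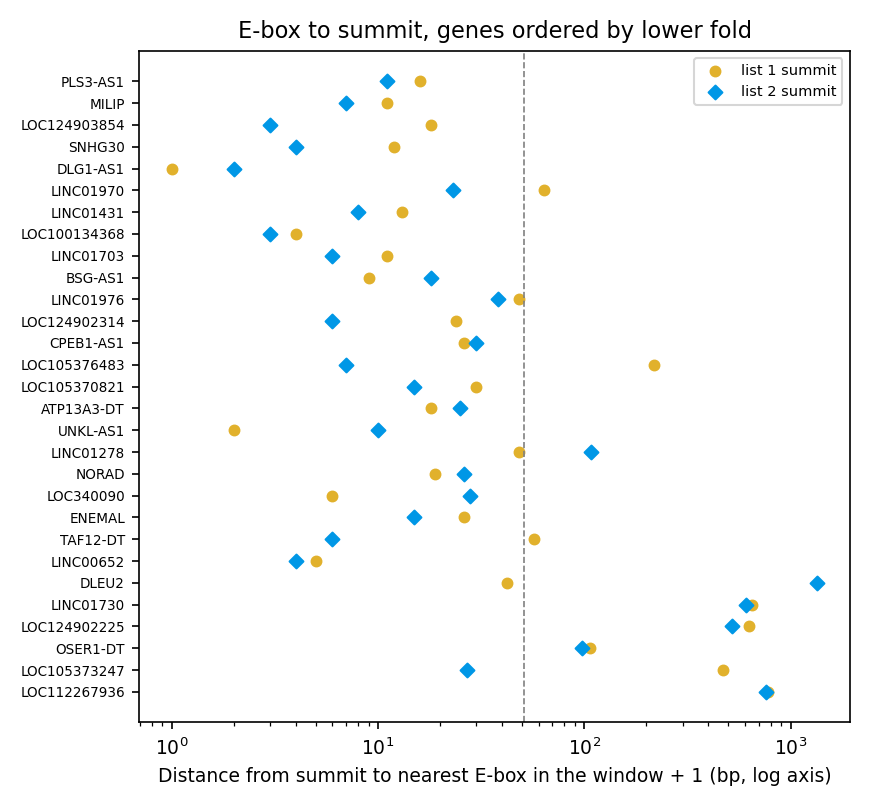
Distance from the summit of list 1 (circles) and list 2 (diamonds) to the nearest E-box in the promoter window, plus 1 bp and on a log axis, for the 29 lncRNA genes with an E-box, from the highest lower fold at the top; the dashed line marks 50 bp. Genes at the top lie to the left of the line in list 2, and the farthest distances are near the bottom.

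The plot of distances between E-box and summit shows 23 genes within 50 bp in list 2 and 21 in list 1. By its flanking bases, each read on the strand whose letters come first in the alphabet, the motif was most often CCACGTGA (11 of 33), GCACGTGA (7) or TCACGTGA (6). It was followed by A on one strand at 26 of 33 E-boxes (78.8%), beside 1431 of 2799 in all windows (51.1%). This is a description of these letters, with more than 1 E-box in the same promoter at 3 genes, and no test was made.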

How the data were processed

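The authors deposited 1 MACS peak list per precipitate, with the matching input as control, per the file headers. MACS 1.4.2 was run at a p cutoff of 1e-05 with a band width of 300 bp and local background windows of 1000 and 10000 bp, keeping 1 tag per position, per the file headers. Bowtie2, deepTools, HOMER and GRCh38 are named per the submitters' processing notes, without versions. Each deposited peak has a count of IP tags that is not scaled to library size or peak width, and a fold enrichment (the authors' ratio of summit tags to expected tags). It also has a deposited score of minus 10 times log10 of the caller's p, and a deposited FDR in percent.

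Peaks were joined and compared in Python 3.11.15 (numpy 2.4.6, pandas 2.3.3, scipy 1.17.1, matplotlib 3.10.9), and the scripts were tested on simulated data. A list 1 peak kept its own fold and that of its list 2 partner, and the partner of highest fold was taken where there were several. The gene table gives no strand, so strand came from the promoter table. One nearest window was counted per gene, and the E-box shares were compared with a two-sided Fisher's exact test. Named were the 12 highest members by lower fold, the 3 highest of each gene type and symbol list, the 4 largest fold ratios in each direction among peaks with a fold of at least 8 in one list, the members at 3 or more genes, those that met the 5% FDR limit in each list, and those at the distance limits. Members, lists and tests were chosen with earlier results of these data known. Depth differed little between libraries, and intervals cover counting error only. Alternatives were stricter thresholds, other distances and overlaps, another motif, the summit in place of the centre and each list alone.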

Additional observations from a re-analysis of the deposited data

How the results depend on the processing

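The number of shared peaks at non-coding gene ends fell from 314 to 90 with a caller p of at most 1e-10 in both lists, to 52 where both folds were 8 or more and to 14 where both FDRs were 5% or less. Each list without the other replicate gave 628 to 1401 peaks. The count stayed within 1.5 times of 314 with an overlap of at least 50% of the list 1 peak (300), the list 1 summit in place of the centre (309) and limits of 500 bp (256) and 2 kb (394). The lncRNA share, 74.5%, was 81.1% with a caller p of at most 1e-10, and 69.6% to 71.2% with each list alone; under the other alternatives it ran from 73.8% to 78.6%. The E-box odds ratio between lncRNA and protein-coding promoters, 0.56, no longer passed the threshold with CACGTG or CACATG (0.936, p = 0.7886, two-sided Fisher's exact test), with both distance limits at 500 bp (0.671, p = 0.06624) and in promoters holding a summit (0.921, p = 0.7961), the last chosen after seeing the data. The cause was not tested. The 500 bp setting also admits promoters nearer to protein-coding ends. It passed where both folds were 8 or more (0.197) and with each list alone (0.519 to 0.679). The planned comparison of lncRNA with other non-coding promoters was not run, since no window of the latter was at hand. No paired analysis was possible because a list holds a single contrast of precipitate with input and values of single libraries were not used. Each peak has only 2 folds, 1 per pair of libraries, which gives a poor estimate of its spread, and the list 1 FDR, at 100% for 147 of the 314 peaks, limits how far weak peaks can be trusted.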

Other observations

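Peaks at non-coding gene ends that were found in 1 list alone numbered 314 in list 1, with a median fold of 5.54, and 1100 in list 2, with a median fold of 5.30. The strongest of them in list 2 was at EP300-AS1, antisense to the gene of the acetyltransferase EP300, with a fold of 14.03, 78 tags and an FDR of 0.13%, 127 bp from the gene's end. It was followed by SERPINA15P (12.04) and MIPEPP3 (11.7, with an FDR of 0.31%). In list 1 the strongest were KNOP1P5 (12.4), LOC124903242 (9.87) and LOC101928849 (9.83), with FDRs of 13.8%, 31.9% and 75.5%. No test was made on these peaks.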
